A study of Mus musculus with 31 samples.

Results

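The response of wild-type (WT) mouse liver to tunicamycin was measured in 8 of the 31 arrays of the series: 4 arrays of WT mice taken 6 h after 2 mg/kg tunicamycin and 4 arrays of untreated WT mice that were littermates of Ire1 knockout (ko) mice. The arrays were chosen by their titles alone. All mice were male and 14 weeks old, and the labels give the WT strain as C57BL/6. The untreated mice were labelled as fed; the labels give no feeding state for the injected mice, name no vehicle injection, and do not state the time of day at which livers were taken. The titles do not say whose littermates the injected mice were. Differences in any of these points cannot be told apart from the drug. Arrays of a group are titled as biological replicates, and p-values measure the spread between those arrays. For comparison, Ire1 ko mice of the same age were given the same dose for the same time (4 arrays) or left untreated (3 arrays). Their strain is labelled as mixed, although the untreated WT mice labelled C57BL/6 are titled as their littermates. The labels do not resolve this, and strain and genotype cannot be told apart. The labels do not state which cells carry the deletion. A further 4 arrays came from untreated, fed WT littermates of Xbp1 ko mice, aged 14 weeks. The series as a whole was designed to find mRNAs cleaved by IRE1α and genes controlled by XBP1 in liver.

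Tunicamycin blocks the first step of N-glycan assembly, which is catalysed by the enzyme encoded by Dpagt1. Glycoproteins then fail to fold in the endoplasmic reticulum (ER), and the unfolded protein response is switched on by the sensors IRE1α (gene Ern1), PERK (Eif2ak3) and ATF6. IRE1α splices the Xbp1 mRNA and degrades some other mRNAs, PERK phosphorylates the initiation factor eIF2α and so favours translation of ATF4, and ATF6 is cut in the Golgi to release a transcription factor. Hepatocytes, the main cells of the liver, secrete most plasma proteins and are therefore rich in ER.

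Each value is the intensity of a probe set, a group of short probes for a transcript, on a linear scale. Most transcripts lay near the lower end of the scale, where the median of every array was 5. On each WT array at least 20.5% of the probe sets reached an intensity of 16, and the brightest value lay between 9367 and 17126. Correlations of log2 intensity were 0.9879 to 0.9913 within the WT groups and 0.9371 to 0.9509 between them. Albumin (Alb) was at 8825.5 ± 588 in untreated and 8725.2 ± 361 in treated WT liver (mean ± SD, n = 4 each, as for all levels below). Markers of bile duct cells, neutrophils and lymphocytes stood under an intensity of 16 in both groups. Precision is limited by there being 4 arrays in each group. Changes are given as the log2 difference of treated minus untreated with its standard error (SE), and a gene is called when its adjusted p lies under 0.05. Near the lower end of the scale such differences understate the true change.

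After tunicamycin 5485 of 15172 tested genes (36.2%) were called, 2803 of them higher (18.5%) and 2682 lower (17.7%). Of the called genes, 1138 were at least 2-fold higher and 812 at least 2-fold lower. The arrays of both groups did not overlap for 4693 genes (30.9%). Calls were more frequent among brighter genes. Of 6257 genes with a mean of 16 or more in either WT group, 4245 were called, 2222 higher and 2023 lower. Shares over all tested genes are therefore a low standard for lists of bright genes. With all arrays shifted to a common median of their brighter probe sets, 2351 genes were called higher and 4098 lower, so that the share of higher calls was 36.5% in place of 51.1%, and with quantile normalization it was 44.1%. As deposited, the median log2 change of the brighter probe sets was 0.13. Small changes of large gene groups are to be read against that value.

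Many of the 10 highest called genes, taken among those that reached a group mean of 64 and whose groups did not overlap, were factors of the stress response itself. Ddit3, which encodes the transcription factor CHOP, had intensities of 16, 18, 11 and 14 in the 4 untreated mice and 3946, 4138, 3458 and 3389 in the 4 treated mice. The ratio of the means was 253, with a log2 change of 8.00 (SE 0.45; adjusted p = 7.81e-10). Nupr1, a small stress-induced chromatin protein, rose from 5 to 6 up to 871 to 1462, and Atf3, a transcription factor of the same family as CREB, from 5 to 6 up to 958 to 1551. Both started at the lower end of the scale. Fgf21, the liver hormone that adjusts fasting metabolism, read 4 on all untreated arrays and 276, 225, 457 and 456 on the treated ones. Trib3, a pseudokinase that feeds back on ATF4 and CHOP, went from 5 to 8 up to 447 to 687. Also among the 10 highest were Ube2c, a ubiquitin-conjugating enzyme of mitosis (5.75 ± 0.5 to 805.5 ± 285), and Tes, a focal adhesion protein (5.5 ± 1.29 to 470.2 ± 64.5). Ccdc134, a secretory pathway protein, reached 276.5 ± 15.9, and Psat1, an enzyme of serine synthesis, 234.2 ± 12.5. The other Ccdc134 probe set had means of 5 in untreated and 7.75 in treated WT liver. Derl3, described below, completed the 10.

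The 10 lowest called genes, taken by the same rule, held several of liver metabolism. Keg1, a glycine N-acyltransferase-like gene, fell from 724, 921, 1105 and 1061 to 22, 11, 13 and 12, a log2 change of -6.08 (SE 0.24; adjusted p = 1.99e-11). Ces1d, a carboxylesterase that mobilises stored fat, fell from 508, 527, 978 and 1021 to 19, 5, 22 and 28 (log2 -5.53, SE 0.42). Phlda1 had a log2 change of -5.41, and Igfals, which stabilises circulating IGF1, one of -5.01. Upp2, a uridine phosphorylase, fell from 564.5 ± 122 to 26 ± 14.1. Nr0b2, the nuclear receptor SHP that represses bile acid synthesis, fell from 157.8 ± 50.3 to 6.5 ± 1.29. Cldn2 (tight junctions), Nrep, Gpr146 and Clmn had log2 changes of -4.48, -4.34, -4.25 and -4.07. For all 20 of these highest and lowest genes the treated and untreated arrays stood fully apart, which the choice of them required.

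**Figure D1:**
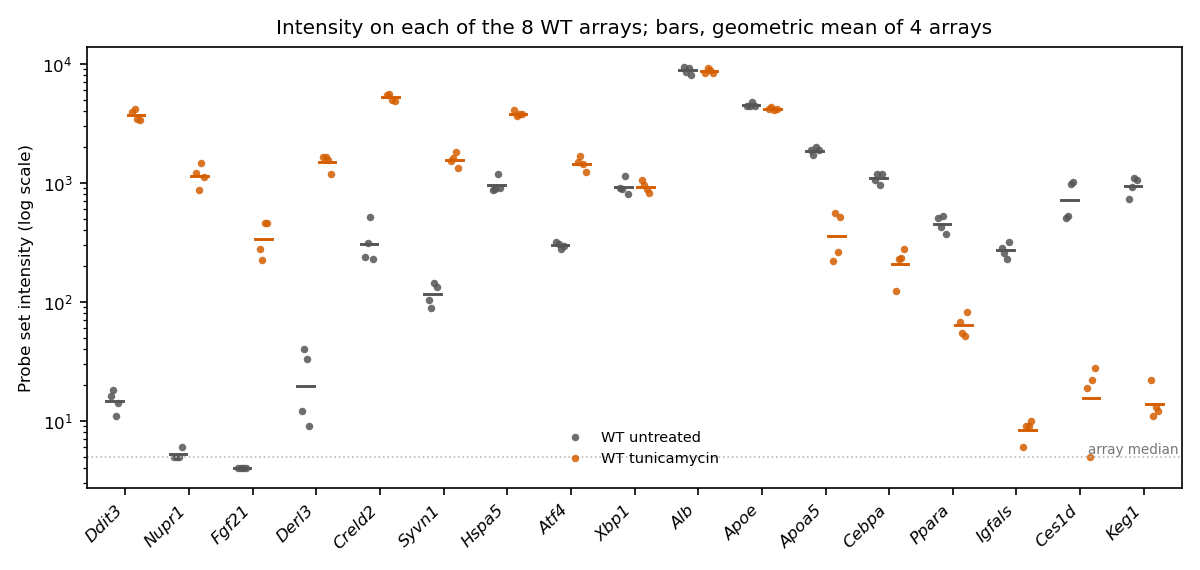
Probe set intensity (log axis) of 17 genes on each of the 8 WT arrays, grey for untreated and orange for tunicamycin, with bars at the geometric mean of 4 arrays. Ddit3, Nupr1, Fgf21 and Derl3 start near the lower end of the scale and reach 225 to 4138, Alb, Apoe and Xbp1 were not called, and Keg1, Ces1d and Igfals drop to 28 or less on every treated array.

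Transcripts of the sensors and of their transducers were mostly raised. Of 13 tested genes on a list of ER stress sensors and transducers, 9 rose and 1 fell, with a median log2 change of 1.20 against -0.02 over all tested genes. Against the other untreated WT group the median of this list was 0.79. Eif2ak3, which encodes PERK, rose from 14.5 ± 2.08 to 122.5 ± 19.3 (log2 3.08, SE 0.15; adjusted p = 1.36e-10). Atf4 read 320, 305, 276 and 294 before and 1491, 1673, 1440 and 1235 after the drug. Atf6 rose from 83 to 87 up to 346 to 379, with a log2 change of 2.11 (SE 0.09). Ern1, which encodes IRE1α, rose less, from 149.2 ± 36.6 to 251.8 ± 43.9 (log2 0.77, SE 0.18; adjusted p = 0.00217). The other Ern1 probe sets stayed under 13, and averaging all of them gave a log2 change of 0.17 with an adjusted p = 0.122.

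Xbp1 itself was not called in WT liver. Its intensities were 904, 880, 1151 and 799 in untreated and 1047, 967, 884 and 823 in treated mice, and the log2 change was 0.00 (SE 0.10; adjusted p = 1). The other bright Xbp1 probe sets had untreated and treated means of 356.2 and 359, and of 843.2 and 875.2. These probe sets measure the total transcript, and spliced Xbp1 was not analysed here. In the Ire1 ko liver the same probe set rose from 754.7 ± 35.6 (n = 3) to 1640.2 ± 106 (n = 4), a log2 change of 1.12, and the responses differed by -1.12 (SE 0.15; adjusted p = 1.70e-04). Ern1 was at 150.3 ± 2.52 in untreated Ire1 ko liver; no label says which exons are missing, and the value is no check of the knockout.

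Chaperone genes of the ER rose almost without exception. On a list of the Hsp70 system of the ER, 17 of 18 tested genes rose and 0 fell, with a median log2 change of 1.97; Cnpy4, at 8.5 ± 1.73 and 6.5 ± 0.577, was the exception. Hspa5, the main ER chaperone BiP, read 872, 880, 1195 and 901 before and 4057, 3646, 3764 and 3776 after (log2 2.00, SE 0.09; adjusted p = 8.11e-11). Its 2 probe sets both rose. Creld2, an ER protein that assists folding, went from 238, 313, 515 and 230 to 5450, 5567, 5004 and 4871, with no overlap between groups. Sdf2l1, Dnajb9, Manf and Dnajc3, which act with BiP as cofactors or are released with it, rose with log2 changes of 3.79, 3.04, 2.79 and 2.59. Among 24 protein disulfide isomerases and oxidases, which form disulfide bonds, 15 rose and 3 fell (median 0.94). Pdia4 rose from 205 ± 55.9 to 2046 ± 101, the oxidase Ero1a from 35.75 ± 8.26 to 400.8 ± 49.1 and Ero1b from 262 ± 33.7 to 1081.5 ± 110, while Prdx4, a peroxidase of the ER, was at 664.8 ± 155 and 675 ± 40.2 (adjusted p = 0.851).

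Genes of the cycle that retains glycoproteins for folding, and of the machinery that removes them, moved the same way. In the lectin folding cycle 10 of 14 genes rose and 0 fell (median 0.73): Calr, the chaperone calreticulin, rose from 1646.5 ± 219 to 3926.8 ± 370, Uggt1, the glucosyltransferase that senses misfolding, by 1.63 and Edem1, which marks terminally misfolded glycoproteins, by 1.57. In ER-associated degradation (ERAD) 14 of 21 genes rose and 2 fell (median 1.26). Derl3, a channel component, read 12, 40, 33 and 9 before and 1635, 1637, 1544 and 1176 after, a ratio of means of 63.7 and a log2 change of 6.26 (SE 0.36; adjusted p = 9.36e-10). Syvn1, the ubiquitin ligase HRD1, rose from 117.8 ± 25.6 to 1564.2 ± 202, its partner Sel1l from 137 ± 19.8 to 1512.5 ± 210, and Herpud1 from 642.2 ± 146 to 3812.8 ± 192. The groups did not overlap for any of these 4 ERAD genes, as for 30.9% of all tested genes. They were named among the called list members with the largest changes, a choice that favours such separation.

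Chaperone and ERAD genes are known for the ER stress element, a promoter motif in which CCAAT and CCACG stand 9 bases apart. It was searched on both strands in RefSeq promoters (GRCm38.p6, from 250 bases before to 50 after the start site), which were at hand for 12118 of the 15172 tested genes. The element was held by 19 of those genes (0.157%). Of 939 genes that rose at least 2-fold 11 held it (1.17%), and 1 of 644 that fell at least 2-fold (0.155%). On the list of the Hsp70 system 4 of 14 genes with a promoter held it (28.6%) and in ERAD 2 of 14 (14.3%). Such genes are already known for the element, so these list shares are not independent evidence for it. The CCAAT box alone, which is part of the element, was in 42.4% of tested genes. The 3 called genes with the element that rose most are shown because they carry this group: Derl3 at chr10:75893148-75893447 on the plus strand, Creld2 at chr15:88819396-88819695 on the plus strand and Syvn1 at chr19:6046326-6046625 on the plus strand. Capitals mark the whole element, which in Derl3 and Creld2 runs on the opposite strand, and whose first base lies at -156, -126 and -44 from the start site. A match is a description of the letters, not of binding.
Derl3: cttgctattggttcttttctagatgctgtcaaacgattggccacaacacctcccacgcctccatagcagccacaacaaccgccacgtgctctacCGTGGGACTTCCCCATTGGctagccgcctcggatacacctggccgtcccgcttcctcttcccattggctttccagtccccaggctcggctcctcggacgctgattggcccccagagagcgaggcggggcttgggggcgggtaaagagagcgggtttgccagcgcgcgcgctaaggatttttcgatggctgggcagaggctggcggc
Creld2: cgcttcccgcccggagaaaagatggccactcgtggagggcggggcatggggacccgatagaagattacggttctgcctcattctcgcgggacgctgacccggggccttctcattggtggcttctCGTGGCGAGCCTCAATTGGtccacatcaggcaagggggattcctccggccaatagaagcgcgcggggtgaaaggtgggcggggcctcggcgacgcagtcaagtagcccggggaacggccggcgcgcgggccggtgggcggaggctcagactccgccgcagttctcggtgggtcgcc
Syvn1: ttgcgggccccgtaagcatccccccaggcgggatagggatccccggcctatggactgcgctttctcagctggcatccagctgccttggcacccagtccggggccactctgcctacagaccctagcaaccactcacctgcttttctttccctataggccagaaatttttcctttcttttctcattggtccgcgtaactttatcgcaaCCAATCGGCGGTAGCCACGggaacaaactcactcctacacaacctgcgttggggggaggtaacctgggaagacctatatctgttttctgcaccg

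Genes for entry into the ER, sugar chain assembly and transport out of the ER were raised along with those for folding. Of 21 genes for the translocon, the signal recognition particle and signal peptidase, 18 rose and 2 fell (median 0.97). Sec61a1, the pore of the translocon, rose from 955 ± 83.2 to 2312 ± 230.3 and Ssr1, a translocon-associated subunit, from 388.5 ± 8.27 to 963.2 ± 81.1. Srprb, a subunit of the receptor for the signal recognition particle, went from 10 to 18 up to 81 to 117. In N-glycan assembly and transfer 27 of 40 rose and 2 fell (median 0.81), with Gfpt1, the entry enzyme of hexosamine synthesis, at 55 ± 15.7 and 932.2 ± 82.1 (log2 4.12) and Gmppb, which makes GDP-mannose, at 63.75 ± 9.43 and 466.5 ± 52. Dpagt1, the target of tunicamycin, rose from 60 to 90 up to 134 to 166, a ratio of means of 1.98 (adjusted p = 2.18e-05); it was named after its value was seen. In vesicle transport between ER and Golgi 42 of 49 rose and 4 fell (median 0.94). Tmed3, a cargo receptor, rose from 84.5 ± 19.9 to 539 ± 39.1, Arfgap3, a regulator of COPI coats, from 11.25 ± 4.35 to 113.8 ± 20.5, and Kdelr3, a receptor that returns ER proteins, from 5 on every untreated array to 26 to 55.

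Of 26 tested targets of PERK and ATF4 19 rose and 2 fell, with a median log2 change of 2.44. Besides Ddit3, Nupr1, Atf3, Fgf21 and Trib3, the cell cycle inhibitor Cdkn1a (p21) rose from 6 to 8 up to 297 to 374. Ppp1r15a, the phosphatase subunit GADD34 that reverses eIF2α phosphorylation, rose from 21.5 ± 6.24 to 185.8 ± 8.81. ATF4 and CHOP bind a composite element, TGATGNAA, which was searched on both strands of the same promoters. It was present in 9 of 22 genes of this list with a promoter (40.9%), against 389 of 12118 tested genes (3.21%). Of 2307 genes that rose 72 held it (3.12%), and of 939 that rose at least 2-fold 34 (3.62%), both near the share over all tested genes. Among the cytosolic aminoacyl-tRNA synthetases it was in 4 of 11 (36.4%). Known targets may have been defined in part by this element, so the list shares are not independent evidence for it. The 3 genes of the element with the largest rise are shown, with the element in capitals: Nupr1 at chr7:126625421-126625720, Atf3 at chr1:191183284-191183583 and Fgf21 at chr7:45615441-45615740, all on the minus strand of GRCm38.p6 and printed in the direction of the gene. In all of them it runs on the opposite strand of the gene, with its first base at -110, -110 and -139.
Nupr1: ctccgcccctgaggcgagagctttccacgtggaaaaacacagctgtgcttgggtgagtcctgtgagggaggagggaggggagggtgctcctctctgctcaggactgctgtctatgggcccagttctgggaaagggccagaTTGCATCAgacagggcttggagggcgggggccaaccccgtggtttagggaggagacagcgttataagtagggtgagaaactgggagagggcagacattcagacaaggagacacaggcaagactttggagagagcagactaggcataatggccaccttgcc
Atf3: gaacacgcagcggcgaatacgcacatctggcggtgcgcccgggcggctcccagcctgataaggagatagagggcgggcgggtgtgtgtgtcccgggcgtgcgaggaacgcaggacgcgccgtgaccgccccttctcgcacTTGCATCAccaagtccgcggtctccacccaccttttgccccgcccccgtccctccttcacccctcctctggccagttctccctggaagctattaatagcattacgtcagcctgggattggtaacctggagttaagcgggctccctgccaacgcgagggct
Fgf21: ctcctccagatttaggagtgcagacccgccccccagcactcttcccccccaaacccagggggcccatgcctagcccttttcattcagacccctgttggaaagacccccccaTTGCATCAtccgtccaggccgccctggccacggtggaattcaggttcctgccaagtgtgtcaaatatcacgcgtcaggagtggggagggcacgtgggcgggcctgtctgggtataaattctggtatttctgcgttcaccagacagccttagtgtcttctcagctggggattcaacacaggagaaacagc

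Genes that load and make the translation machinery rose as well. Of 17 cytosolic aminoacyl-tRNA synthetases, which charge tRNAs with amino acids, 16 rose (median 1.49), among them Wars from 23 ± 2.45 to 206.8 ± 21.7, Lars from 72 ± 9.38 to 349.5 ± 76.2 and Gars from 125.8 ± 7.89 to 472 ± 58.2. The remaining gene, Mars1, was lower at 154.5 ± 13.4 and 112.2 ± 17.9 (log2 -0.47; adjusted p = 0.0172), and this call was lost without treated replicate 3 (adjusted p = 0.067) or untreated replicate 1 (adjusted p = 0.0503), and against the other untreated WT group (adjusted p = 0.0565); it was named after its value was seen. Of 14 mitochondrial synthetases 5 rose and 3 fell. Of 28 translation initiation factors 19 rose and 2 fell (median 0.71), with Eif1a at 99.75 ± 19.6 and 533.2 ± 63.5 and Eif4e, the cap-binding protein, at 5.25 ± 0.5 and 31.75 ± 8.58. Of 33 ribosome biogenesis factors 29 rose and 1 fell (median 1.21), with Nop58, a core protein of small nucleolar particles, up by 3.94 and Ppan by 2.52. Cytosolic ribosomal proteins moved little: 14 of 32 rose and 0 fell with a median of 0.19, and with the arrays at a common median 4 rose and the median was 0.06. Rplp0 rose from 1889 ± 167 to 2765 ± 209.7.

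Of 14 genes for amino acid synthesis and one-carbon metabolism 6 rose and 4 fell. Psat1 stood out with 4 to 5 before and 223 to 247 after (log2 5.71, SE 0.14). Asns, asparagine synthetase, read 38, 33, 109 and 40 before and 321, 229, 189 and 108 after, and the groups overlapped (log2 2.03, SE 0.38; adjusted p = 4.11e-04). Cth, which makes cysteine, was at 1142.2 ± 192 and 1350.2 ± 96.4 (adjusted p = 0.128). Of 15 amino acid transporters 4 rose (26.7%) and 3 fell (20.0%), near the shares over all genes: Slc7a1, a carrier of cationic amino acids, from 5.5 ± 0.577 to 138.2 ± 48.2 and Slc3a2, the shared heavy chain of several carriers, from 137.8 ± 16 to 404.2 ± 20.9.

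Transcripts of lipid metabolism were lowered over most of its branches. Of 32 genes of fatty acid oxidation and ketogenesis 24 fell and 4 rose (median -0.68). Ppara, the nuclear receptor that drives this programme, read 502, 429, 526 and 369 before and 68, 55, 52 and 82 after, a log2 change of -2.84 (SE 0.17; adjusted p = 1.47e-09). Cpt2, of the carnitine shuttle, fell from 372 ± 17.2 to 127.2 ± 19.8. Vnn1, a PPARα target, fell by 1.99 on the log2 scale with overlapping arrays (21 to 88 against 7 to 24). Pdk4, which spares glucose, was among the genes that rose, from 4.75 ± 0.957 to 16.5 ± 1.91; Fgf21, also on this list, was another. In lipogenesis 12 of 26 fell and 2 rose, with log2 changes of -2.69 for Lpin2 and -2.41 for Gpam, the entry enzyme of glycerolipid synthesis. Scd1 stayed at 2080 ± 304 and 2119.8 ± 123 (adjusted p = 0.928) and Dgat2 at 1134.5 ± 88.3 and 1112.8 ± 92.1 (adjusted p = 0.895).

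Cholesterol synthesis and uptake was split, with 11 of 21 genes lower and 4 higher (median -0.54, and -0.29 against the other untreated WT group). Mvd, mevalonate diphosphate decarboxylase, rose from 75, 51, 15 and 41 to 334, 303, 304 and 306, while Dhcr7, the last enzyme of the pathway, fell from 218.5 ± 60.9 to 28 ± 6.73. Sqle was at 563.8 ± 106 and 454 ± 92.4 (adjusted p = 0.244), and against the other untreated WT group it was higher by 1.09 (adjusted p = 0.00795). Of 23 genes for apolipoproteins and lipoprotein handling 18 fell and 0 rose (median -0.77). Apoa5, which activates triglyceride clearance, fell from 1726 to 1981 down to 220 to 555, Abcg8, a sterol exporter, from 94.75 ± 22.7 to 6.5 ± 1, and the receptor Lrp1 from 294.2 ± 43.7 to 33 ± 10. Apoe was at 4515.2 ± 193 and 4195.8 ± 94.3 (adjusted p = 0.125), although every treated array lay below the untreated ones. In bile acid synthesis 12 of 18 fell and 0 rose, among them Akr1d1 (133 ± 36.2 to 31.75 ± 9.03). Cyp7a1, the rate-limiting enzyme, read 430, 337, 258 and 346 before and 45, 20, 290 and 266 after (log2 -1.89, SE 0.66; adjusted p = 0.0348). Treated replicates 1 and 2 lay far below 3 and 4, the call was lost without treated replicate 1 (adjusted p = 0.119) or 2 (0.13) and without untreated replicate 1 (0.0853), 2 (0.071) or 4 (0.0724), and against the other untreated WT group the difference was 0.80 (adjusted p = 0.299). The Cyp7a1 call was also lost with only the 8 WT arrays in the limma fit (adjusted p = 0.127). Fits with no filter (0.0752), with all probe sets averaged (0.0977) and with robust eBayes (0.0854) lost it too. Cyp8b1 was at 558.8 ± 145 and 314.5 ± 63.4 (adjusted p = 0.173).

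Transcripts for uptake and detoxification of drugs and bile acids fell in the same livers. Of 20 hepatocyte transporters 13 fell and 2 rose (median -1.01): Slc10a1, the bile acid importer NTCP, from 2190.8 ± 71 to 751.2 ± 103 and the organic cation exporter Slc47a1 from 274 ± 39.3 to 66 ± 11.1. Among 37 cytochrome P450 enzymes 21 fell and 2 rose. Cyp2b10, the classical target of the receptor CAR, was one that rose, from 116, 112, 102 and 81 to 3122, 2079, 2191 and 2872 (log2 4.63, SE 0.47; adjusted p = 5.73e-07). In the other untreated WT group Cyp2b10 already stood at 388 to 1127. Cyp3a11 was at 3883.2 ± 218 and 3488.8 ± 269 (adjusted p = 0.0996). Of 37 conjugating enzymes 22 fell and 1 rose, with Ugt2b35 down from 660.5 ± 104.2 to 159.2 ± 63.6. In urea cycle and amino acid catabolism 27 of 41 fell and 2 rose: Hal, which breaks down histidine, from 880.5 ± 129.97 to 85.75 ± 15, and Gldc, of glycine cleavage, with a log2 change of -2.73. The abundant urea cycle genes Cps1 (3307 ± 246 and 3020.8 ± 193) and Ass1 (2792.8 ± 299.7 and 2603.8 ± 221) were not called. Of 26 genes of gluconeogenesis and glucose metabolism 11 fell and 5 rose, the glucose carrier Slc2a1 from 14.25 ± 2.06 to 59.75 ± 11.9.

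Plasma protein genes fell widely but unevenly. In complement 18 of 24 genes fell and 1 rose (median -0.69): Hc, component C5, from 2396, 2480, 2322 and 2330 to 536, 353, 804 and 613, and C2 from 466 ± 31.6 to 169 ± 19.4. In coagulation and fibrinolysis 14 of 25 fell and 0 rose, with F7 down from 306.8 ± 28.4 to 90 ± 7.7, while fibrinogen Fgb was at 4429.5 ± 377 and 4279.8 ± 194 (adjusted p = 0.737). Of 27 plasma carriers and protease inhibitors 17 fell and 0 rose, with Agt, the angiotensin precursor, at 1208.2 ± 104 and 640 ± 95.7. For Alb the treated minus untreated value was -0.01 on the log2 scale (SE 0.07; adjusted p = 0.931). Of 36 acute phase genes 7 were called higher (19.4%) and 9 lower (25.0%), near the 18.5% and 17.7% over all genes, and 14 were called lower with the arrays at a common median. Apcs, serum amyloid P, rose from 857.2 ± 262 to 2978 ± 437 and Hamp2, a hepcidin, from 269.5 ± 69.4 to 1043.2 ± 225, and Nfkbia, the inhibitor of NF-κB, fell from 117.8 ± 38.1 to 36 ± 2.16.

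Transcripts of the factors that define hepatocytes were themselves lower in part. Of 28 hepatocyte transcription factors 13 fell and 3 rose (median -0.33, and -0.58 against the other untreated WT group). Cebpa read 1059, 1192, 958 and 1181 before and 124, 231, 235 and 278 after (log2 -2.39, SE 0.19; adjusted p = 3.47e-08). Onecut1 (HNF6) fell from 57 to 125 down to 5 to 7, and Foxa2 from 65 to 102 down to 6 to 10. Nr1i3, the receptor CAR, fell from 197.2 ± 57.6 to 27.25 ± 3.77. Hnf4a was at 714 ± 72 and 629.2 ± 53.1 and was not called (log2 -0.18; adjusted p = 0.116), but with the arrays at a common median the difference was -0.31 with an adjusted p = 0.0143. It was also called against the other untreated WT group (-0.32, adjusted p = 6.60e-04) and without untreated replicate 2 (adjusted p = 0.0288). Of 29 nuclear receptors 11 fell and 2 rose.

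Transcripts of the growth hormone axis were mostly lowered, while those of liver hormones and growth factor binders moved both ways. Of 23 genes of growth hormone signalling 17 fell and 1 rose (median -0.60), including Igfals. Cish and Socs2, feedback genes of this pathway, fell from 52.75 ± 12.4 to 7.25 ± 0.957 and from 26.75 ± 7.68 to 7.5 ± 2.65, and Hsd3b5, a male-specific steroid enzyme, from 1227 to 1671 down to 123 to 459. Of 27 liver hormones and growth factor binders and receptors 13 fell and 5 rose. Fgf21, with a log2 change of 6.40, was among those that rose. Met and Egfr, receptors for hepatocyte and epidermal growth factor, fell from 116.2 ± 3.3 to 32 ± 4.69 and from 572 ± 59.4 to 181 ± 45.5. Igfbp1, an IGF binding protein, read 146, 97, 134 and 330 before and 291, 731, 628 and 685 after, and the groups overlapped (log2 1.80, SE 0.32; adjusted p = 2.28e-04).

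**Figure D2:**
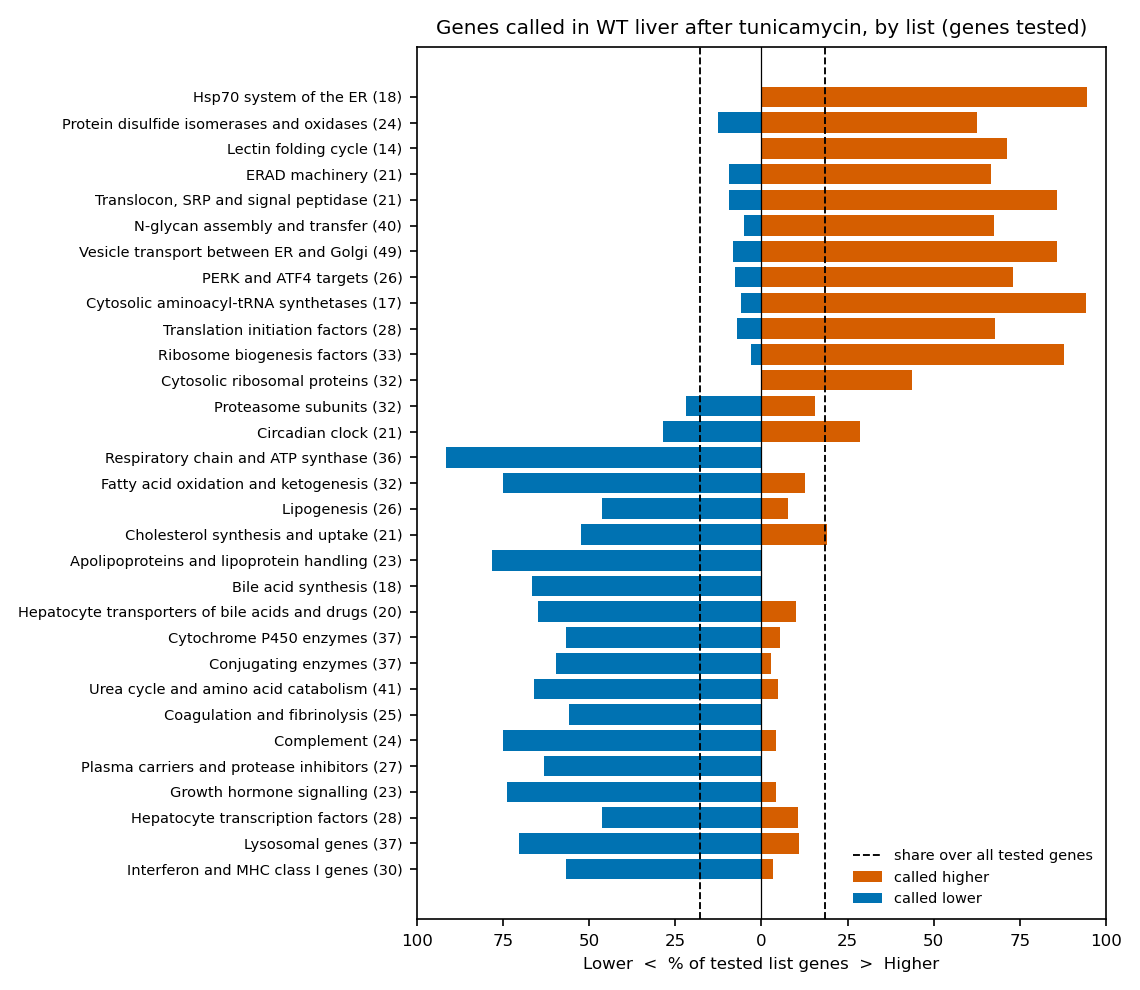
Share of tested genes called higher (orange, to the right) and lower (blue, to the left) in treated WT liver for 31 gene lists, with the number of tested genes in brackets; dashed lines mark 18.5% and 17.7%, the shares over all tested genes. Lists of ER folding, transport and translation extend to the right and lists of liver metabolism and plasma proteins to the left, while the proteasome and the circadian clock extend both ways. The shares marked by the dashed lines are larger among genes with a mean of 16 or more.

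Genes of mitochondrial respiration were lowered by small amounts. Of 36 genes of the respiratory chain and ATP synthase 33 fell and 0 rose, with a median of -0.41; Atp5o fell from 664.5 ± 36.3 to 340 ± 31.1 and Ndufb3 from 449.5 ± 18.4 to 233.2 ± 38.6. Of 32 proteasome subunits 5 rose and 7 fell (37.5% called against 36.2% over all genes), but 13 were called lower with the arrays at a common median and 13 against the other untreated WT group. In the cytosol 5 of 17 heat shock proteins rose and 6 fell: Bag3, a cochaperone of Hsp70, rose from 35 ± 3.92 to 171.5 ± 26.4, whereas Hspa8 was at 1801.8 ± 260.4 and 1960.5 ± 139 (adjusted p = 0.376). Among 25 NRF2 antioxidant genes 14 fell and 4 rose. Srxn1, sulfiredoxin, had a log2 change of 2.19 and Gclc, the limiting enzyme of glutathione synthesis, one of -1.53. Of 37 lysosomal genes 26 fell and 4 rose (median -0.63, and -0.38 against the other untreated WT group), the latter including the protease Ctsl (1513.8 ± 11.6 to 3564 ± 68.8) and the cholesterol exporter Npc1 (54.5 ± 12.8 to 210.8 ± 30).

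Lists of metal handling, growth arrest and immune genes also held called genes, against 36.2% over all genes and 4245 of 6257 brighter genes. The called shares were 82.6% for iron, 71.4% for zinc, 63% for p53, 51.5% for immediate early and 60% for interferon and MHC class I genes. Of 23 genes of iron homeostasis 12 fell and 7 rose: the transferrin receptor Tfrc fell from 165.5 ± 31.3 to 36 ± 13.6 and the iron exporter Slc40a1 from 351 ± 20.5 to 117.5 ± 27.9. Of 14 genes of zinc transport and metallothioneins 7 rose and 3 fell, with Slc30a5, which fills the secretory pathway, at 117.5 ± 24.6 and 446.8 ± 16.6 and the importer Slc39a14 at 247 ± 60 and 753.5 ± 34.9. Of 27 p53 targets and growth arrest genes 9 rose and 8 fell; Gadd45a rose from 5 to 6 up to 58 to 120 and Btg2 from 12.75 ± 2.36 to 83.5 ± 29.6. Of 36 BCL2 family and death genes 5 rose (13.9%) and 12 fell (33.3%), against 18.5% and 17.7% over all genes. Cflar, an inhibitor of death receptor signalling, was among the fewer that rose, from 67 ± 10.6 to 238.8 ± 22.5. Of 33 immediate early genes 12 rose and 5 fell, with Klf10 up by 2.79 and Jun from 16 ± 4.9 to 71.25 ± 11.2. Of 30 interferon and MHC class I genes 17 fell and 1 rose, and 11 were called lower against the other untreated WT group, where the list median was -0.24 in place of -0.62. Among them was Iigp1, a GTPase against intracellular parasites, which read 849 to 923 before and 59 to 102 after.

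Clock genes included large changes in both directions, and the labels state no time of day. Of 21 circadian clock genes 6 rose and 6 fell. Arntl (BMAL1), a core activator, read 5, 4, 4 and 4 before and 86, 58, 117 and 88 after (log2 4.32, SE 0.21; adjusted p = 1.91e-10). The other Arntl probe set stayed near the lower end of the scale, with means of 4.25 and 5.25 in untreated and treated WT. Dbp, an output factor that normally peaks opposite to Arntl, fell from 231, 234, 209 and 306 to 12, 38, 18 and 39. Per1 rose from 16 to 32 up to 128 to 179 and Nfil3 from 30 to 39 up to 187 to 262, while Hlf fell from 35 to 48 down to 8 to 11 and Usp2 from 162 to 290 down to 21 to 75. In the other untreated WT group Arntl stood at 4 to 6 and Dbp at 146 to 243. In treated Ire1 ko liver Arntl stood at 23 to 47 and Dbp at 83 to 119, and the responses differed for Arntl by 1.71 (adjusted p = 0.00247) and for Dbp by -2.10 (adjusted p = 0.0114). The part of sampling time in these values was not tested.

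**Figure D3:**
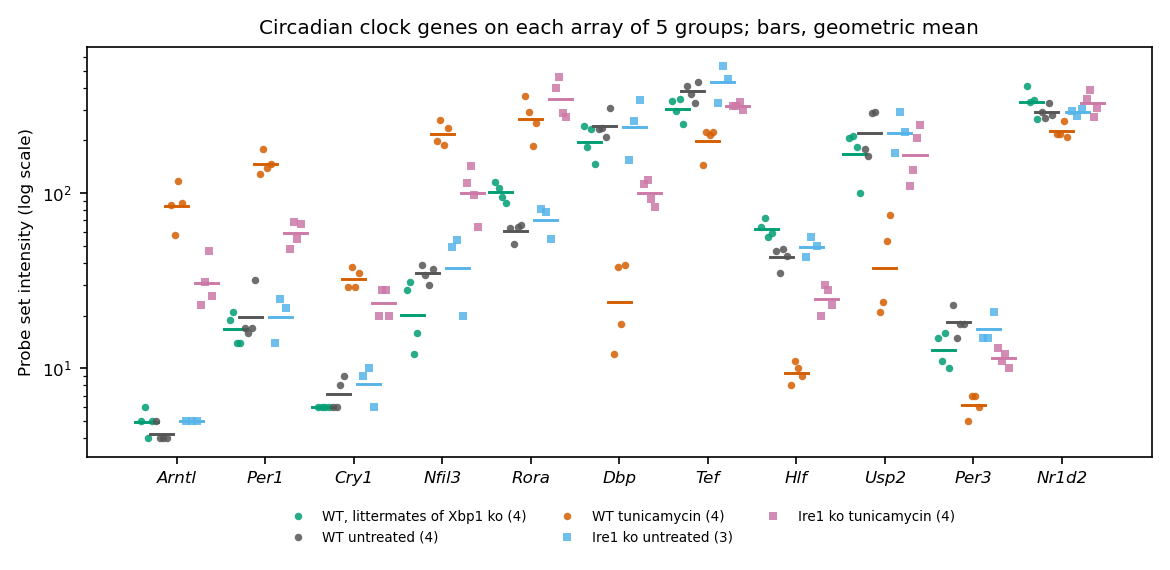
Probe set intensity (log axis) of 11 circadian clock genes on each array of 5 groups, with bars at the geometric mean. Arntl lies at 4 to 6 in the untreated groups shown, at 23 to 47 in treated Ire1 ko and at 58 to 117 in treated WT liver, and Dbp runs the opposite way.

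The IRE1α branch was read from the genes it is known to act on and from the Ire1 ko livers. On a list of published IRE1 decay substrates 9 of 14 genes fell and 0 rose (median -0.71); members may have been picked in work on these livers, so the list is not independent evidence of its direction. Bloc1s1, the classical substrate, fell from 151, 145, 161 and 148 to 19, 11, 18 and 22 (log2 -3.16, SE 0.17; adjusted p = 4.36e-10). Tmem238 fell from 227 ± 13.9 to 44 ± 5.94 and Hgsnat, a lysosomal acetyltransferase, from 132.8 ± 26.2 to 53.25 ± 14.5. In Ire1 ko liver the log2 changes of these 3 genes were -0.72, -0.34 and -0.06, and the responses differed by -2.43, -2.04 and -1.28 (adjusted p = 1.26e-05, 1.16e-06 and 0.0115). These were the 3 of 14 list members with a called difference between the genotypes. The other 11 had none, among them Ergic3, a protein of the ER-Golgi intermediate compartment, with log2 changes of -1.03 in WT and -0.93 in Ire1 ko (difference -0.10, SE 0.27; adjusted p = 0.905). Of 10 carboxylesterases 8 fell and 0 rose in WT, and 4 had a called difference from Ire1 ko. Ces1f fell from 1114.5 ± 218 to 114.5 ± 47.8. Its log2 change was -3.37 in WT and -1.89 in Ire1 ko, a called difference (adjusted p = 0.0294). For Ces1g the log2 changes were -2.98 and -1.47, and the difference was not called (adjusted p = 0.463). Ces1g, low and variable in the untreated littermates (98, 21, 126 and 32), fell to 5 to 9, and in the other untreated WT group it stood at 232 to 314.

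Set against Ire1 ko liver, the WT response differed for 1144 of 15172 genes (7.54%) by a test of the difference itself, being above the Ire1 ko response for 599 (3.95%) and below it for 545 (3.59%). Among the 2803 genes that rose in WT the difference was called for 604 (21.5%), and 549 of these changed more in WT. Among the 2682 that fell it was called for 376 (14.0%), with 360 changing more in WT. Ire1 ko liver shared a called change in the same direction for 1900 of the raised and 1296 of the lowered genes, and a called change in the opposite direction for 26 and 24. The fits share one estimate of spread, and the members were chosen as called in WT, so these shares describe the WT genes and are not a comparison of the sizes of both responses.

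The lists parted by function. In vesicle transport 34 of 49 genes and in the translocon group 16 of 21 had a called difference. In all of them the signed log2 change of WT lay above that of Ire1 ko. The Ire1 ko medians were 0.12 and 0.09 against 0.94 and 0.97. By the same signed count, WT lay above in 16 of 40 genes of N-glycan assembly and below in 1. For the Hsp70 system the medians were 1.97 in WT and 1.87 in Ire1 ko, with WT above in 3 genes and below in 2. Among ribosome biogenesis factors WT lay above in 0 genes and below in 1. Ssr1 read 385, 392, 398 and 379 untreated and 927, 1048, 1010 and 868 treated in WT, against 210, 200 and 213 untreated and 175, 168, 172 and 196 treated in Ire1 ko. Hspa5 and Atf4 rose by 1.97 and 2.26 in Ire1 ko, close to their WT values, with differences of 0.03 (SE 0.13) and 0.02 (SE 0.18). Eif2ak3 reached 122.5 ± 19.3 in WT and 16.25 in Ire1 ko.

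**Figure D4:**
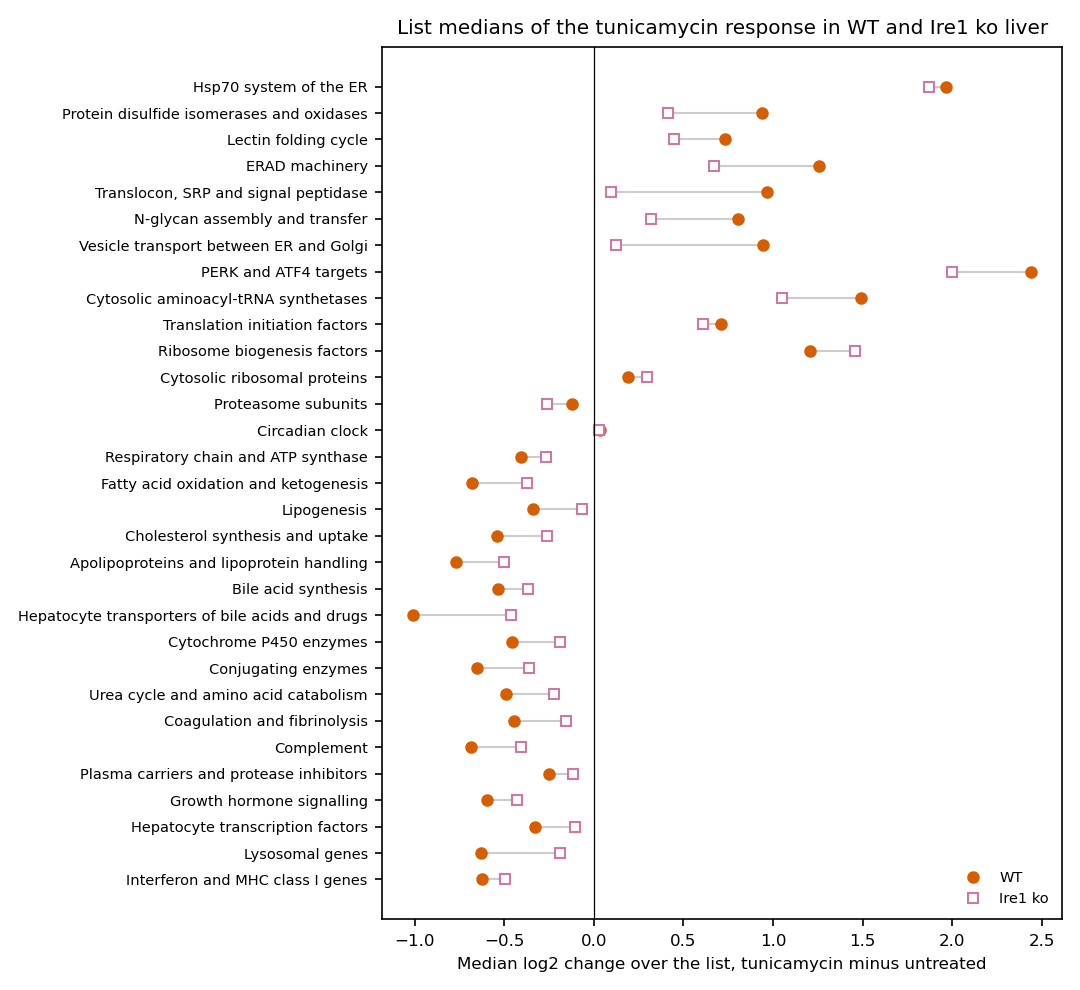
Median log2 change, treated minus untreated, of 31 gene lists in WT (filled circles) and Ire1 ko liver (open squares). The medians of the translocon and vesicle transport lists are 0.97 and 0.94 in WT and 0.09 and 0.12 in Ire1 ko, while those of the Hsp70 system are 1.97 and 1.87.

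Single genes showed wide gaps. Far1, which makes fatty alcohols for ether lipids, read 520, 241, 189 and 181 in treated WT liver and averaged 6 in treated Ire1 ko, a difference of responses of 5.27 (SE 0.38; adjusted p = 4.77e-07). Bhlha15 (MIST1), a transcription factor of secretory cells, read 5 on all 7 untreated arrays, 179, 190, 163 and 151 in treated WT and 5, 6, 5 and 7 in treated Ire1 ko. Suco, an ER protein, rose from 18 to 22 up to 518 to 574 in WT, against 33 to 52 in treated Ire1 ko. Its second probe set went from a mean of 13 to 507.2 in WT. The second probe sets of Bhlha15 and Ccdc134 did not follow, with WT means of 4.25 and 4.5, and of 5 and 7.75. Tspyl2, Ube2c and Ccdc134 had differences of 4.01, 4.74 and 3.61. On the side of the lowered genes Ces1d differed by -4.04 (SE 0.63; adjusted p = 5.96e-04), Onecut1 by -2.08 and Hc by -1.74. Keg1 and Cdkn1a changed by -6.37 and 5.67 in Ire1 ko as well, with differences of 0.29 (SE 0.35) and -0.09 (SE 0.24).

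**Figure D5:**
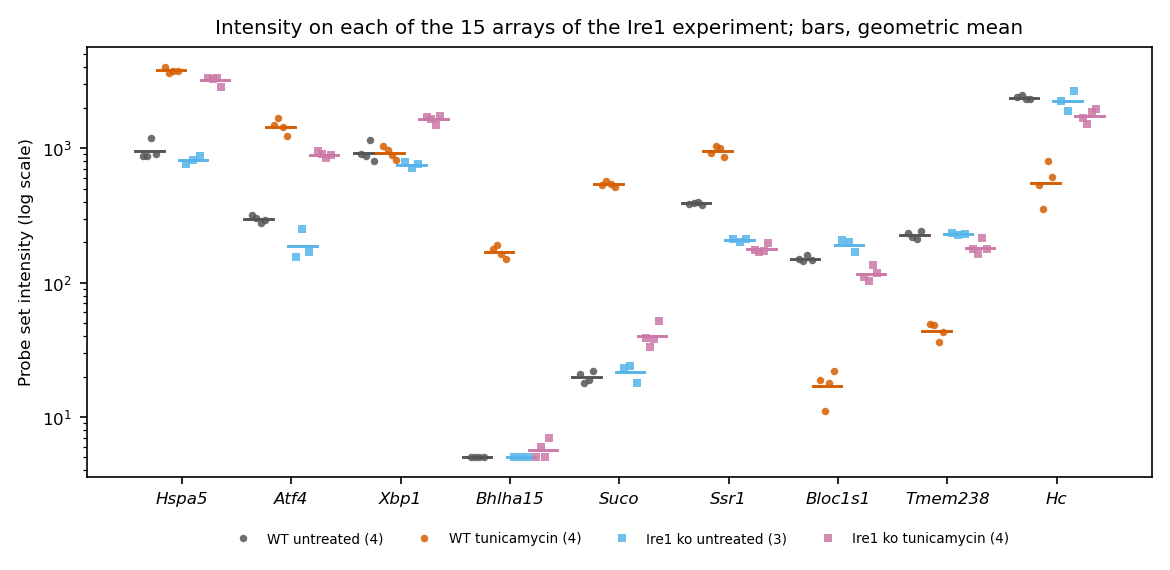
Probe set intensity (log axis) of 9 genes on each of the 15 arrays of the Ire1 experiment, with bars at the geometric mean. Hspa5 and Atf4 rise in both genotypes, Xbp1 rises in Ire1 ko, Bhlha15, Suco and Ssr1 rise in WT by far more than in Ire1 ko, and Bloc1s1, Tmem238 and Hc fall further in WT.

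The choice of untreated mice was checked with the WT littermates of Xbp1 ko. The untreated WT groups differed from each other in 2127 of 16017 genes (13.3%), 168 of them by at least 2-fold. In the same fit tunicamycin changed 1958 genes by at least 2-fold against the littermates of Ire1 ko and 2215 against those of Xbp1 ko. Of 148 genes named here and compared, 29 differed between the untreated groups, 10 of them at least 2-fold. These were Cyp7a1 (-2.68), Mvd (-2.38), Igfbp1 (-1.48), Sqle (-1.40), Tfrc (-1.31), Gmppb (-1.27), Derl3 (-1.18), Klf10 (1.44), Ces1g (2.40) and Cyp2b10 (2.75), as log2 differences of littermates of Xbp1 ko minus littermates of Ire1 ko. Atf4 and Atf6 were lower by smaller amounts (-0.53 and -0.62). Hspa5, Xbp1, Keg1 and Bloc1s1 had log2 differences between the untreated groups of 0.05, 0.02, 0.11 and -0.04.

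Markers of other liver cells were summed to set beside these changes, and no sum passed the threshold after adjustment. The summed level of 16 Kupffer cell and macrophage markers was 915 to 1829 on untreated and 684 to 907 on treated arrays, 54.9% of the untreated mean. Of these 16 genes 4 fell and 0 rose, which is 25.0% called against 36.2% over all genes, 5 lay under an intensity of 16, and the defining marker Clec4f was at 123 ± 42.8 and 71 ± 9.63 (adjusted p = 0.0721), while Cd5l fell from 569.2 ± 180 to 251.8 ± 45.3. For 14 sinusoidal endothelial markers the sums were 1079 to 1428 and 859 to 989 (70.7%), with 5 lower and 1 higher, and 12 hepatocyte markers summed to 51043 to 54578 and 47372 to 48206 (91.3%), with 7 lower and 1 higher. For 14 stellate cell and fibroblast markers, 13 of them tested and 4 lower, the sums overlapped at 635 to 854 and 605 to 768. The 10 adipose and pancreas markers summed to 162 to 220 and 86 to 133, nearly all of it from 1 gene, since 9 lay under 16. The 12 lymphocyte markers, all under 16, summed to 58 to 61 and 54 to 57. For the Kupffer, endothelial, hepatocyte, adipose and lymphocyte sums the groups did not overlap (exact permutation test, two-sided, p = 0.0286 each, the smallest that 4 against 4 arrays allow; adjusted p = 0.0514 over 9 lists). For the stellate sums p was 0.257, and for bile duct, neutrophil and erythroid markers it was 0.514, 0.457 and 0.686 by the same exact test. In whole liver, fewer cells of a type and less RNA per cell cannot be told apart, and their part in the changes above was not tested.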

How the data were processed

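Total liver RNA was hybridised to mouse Affymetrix arrays. The authors deposited an intensity for each probe set as a linear whole number; per the submitters' processing notes the values were made with RMA and the affy package, versions not given. The lowest value was 3, and 66.2% of values were 6 or less. Log2 was taken before fitting. Of 45037 probe sets 28898 had 1 gene symbol, 551 had several and 15588 were not in the annotation; each of 17097 genes was read from its probe set with the highest mean, so genes without one are not analysed here. Genes above the 30th percentile in at least 3 arrays were tested with limma 3.58.1 in R 4.3.3 (lmFit, eBayes with trend) on the 15 arrays of the Ire1 experiment, with Benjamini-Hochberg adjustment at 0.05. Both untreated WT groups were compared in one fit of 31 arrays. The difference of the responses is the WT minus the Ire1 ko log2 change.

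The members, the 61 gene lists and the tests were chosen with earlier results of these data known, and 57 lists are described. Lists are summarised by counts and medians with no list test; 126 genes stand on more than 1 list. Named genes were Xbp1, Ern1, Hspa5, the 10 highest and 10 lowest called genes with non-overlapping arrays and a group mean of 64 or more, up to 6 called and 3 uncalled genes of each list, 10 genes by the difference of responses, and exceptions marked in the text. Leaving out single arrays, scaling, filters, an offset of 16, probe set averaging, other fits and the other untreated group were tried.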

Additional observations from a re-analysis of the deposited data

Results flagged for a closer look

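Among the genes named above, 60 had a called difference between the WT and the Ire1 ko response (limma, adjusted p under 0.05), given here as WT minus Ire1 ko on the log2 scale. Genes of the secretory pathway and the stress sensors that rose more in WT were Arfgap3 (3.11), Kdelr3 (2.72), Eif2ak3 (2.43), Srprb (2.28), Tmed3 (1.76), Slc30a5 (1.65), Ssr1 (1.53), Gmppb (1.41), Ero1a (1.11), Sec61a1 (1.02), Herpud1 (0.74), Edem1 (0.68) and Dnajc3 (0.49). Other genes that rose more in WT were Far1 (5.27), Bhlha15 (4.90), Ube2c (4.74), Tspyl2 (4.01), Suco (3.87), Ccdc134 (3.61), Tes (3.05), Eif4e (2.21), Slc7a1 (2.12), Bag3 (1.98), Psat1 (1.97), Cflar (1.80), Arntl (1.71), Pdk4 (1.66), Per1 (1.33), Klf10 (1.20), Wars (1.12) and Slc39a14 (0.76). Manf (-0.89) and Slc3a2 (-0.74) rose more in Ire1 ko, and Xbp1 (-1.12) was called higher there and not in WT. Dgat2 (-0.61) and Hnf4a (-0.58) were called higher in Ire1 ko and not called in WT.

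The genes that fell further in WT included the decay substrates and esterases Ces1d (-4.04), Bloc1s1 (-2.43), Tmem238 (-2.04), Ces1f (-1.48) and Hgsnat (-1.28). Regulators among them were Phlda1 (-2.30), Usp2 (-2.13), Dbp (-2.10), Onecut1 (-2.08), Nr0b2 (-1.81), Foxa2 (-1.72), Cish (-1.62), Cebpa (-1.54), Hlf (-1.21) and Ppara (-0.96). The remainder were Hc (-1.74), Lrp1 (-1.66), Hal (-1.62), Gpr146 (-1.59), Clmn (-1.53), Met (-1.11), Gpam (-0.98), Slc40a1 (-0.93) and F7 (-0.71). Strain and genotype cannot be told apart in these values.

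Of 256 groups of 4 arrays with a mean of 16 or more, 14 held 1 array far from the others, where chance gives about 1 in 20. In untreated WT liver replicate 3 was highest for Hspa5 (1195, others 872 to 901), Asns (109, others 33 to 40) and Apoe (4802, others 4392 to 4451) and lowest for Ass1 (2344, others 2927 to 2966). Replicate 4 was highest for Hamp2 (373, others 225 to 242) and Per1 (32, others 16 to 17), and replicate 1 lowest for Agt (1054, others 1241 to 1278). In treated WT liver replicate 1 was highest for Sel1l (1826, others 1378 to 1439) and Mvd (334, others 303 to 306) and lowest for Igfbp1 (291, others 628 to 731). Replicate 2 was lowest for Ass1 (2277, others 2662 to 2745) and highest for Srxn1 (229, others 124 to 133), replicate 3 highest for Hspa8 (2169, others 1879 to 1902) and replicate 4 for Jun (88, others 65 to 66).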

How the results depend on the processing

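Depth cannot be given for arrays; the lower end of the scale and the number of arrays set the limit. Over 20 alternatives, 130 of 133 called named genes kept their call and direction. The exceptions were Cyp7a1, Ern1 and Mars1. Most named genes were chosen for large changes, which favours keeping a call, so this count does not carry over to all 5485 called genes. Of 17 named genes that were not called, 10 were called in the same direction in some alternative, and Sqle was called in the opposite direction. A gene described as not called is therefore not shown to be unchanged. Against the WT littermates of Xbp1 ko, Cyp7a1 turned to 0.80 and Sqle to 1.09. There 13 proteasome subunits and 11 interferon and MHC class I genes were called lower. With the common median, 4098 genes were called lower in all, 13 of them proteasome subunits and 14 acute phase genes, and 4 ribosomal proteins higher. With log2 of intensity plus 16, 1140 genes changed at least 2-fold; the offset itself shrinks changes of dim genes. Other counts of genes stayed within 1.5 times their value. So did the larger of the higher and lower counts of every other list checked. The smaller count of each list, and lists with few calls, were not checked. Leaving out 1 array gave 5056 to 5234 called genes, 2557 to 2804 higher, 2418 to 2569 lower and 1890 to 2008 changed at least 2-fold, 921 to 1106 with a called difference from Ire1 ko and 1582 to 1996 between the untreated WT groups. Leaving out Ire1 ko arrays or arrays of the untreated comparison was chosen after seeing the data. Replicate numbers did not pair the WT arrays (correlations of same-numbered deviations 0.058, -0.072, 0.022 and 0.197); with a replicate block 5371 genes were called and 976 had a called difference from Ire1 ko.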
